A study of Mus musculus with 6 samples.

Results

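The regions described here are the limb ChIRP-seq peaks that lie near the start of a protein-coding gene without touching an annotated exon. A peak of the limb list was taken when it overlapped no annotated exon of any gene type and when its midpoint lay within 5 kb of the 5′ end of a protein-coding gene, with the strand of the gene deciding which side was upstream. No score was used in the choice. In all, 180 of the 2880 limb peaks qualified (6.25%), with 96 on the upstream side and 84 on the downstream side, and they lay nearest to 169 different coding genes. The same rule applied to the glial list gave 164 of 2919 peaks.

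The peaks come from ChIRP-seq, in which biotin-tagged DNA probes against 1 RNA, here the long noncoding RNA *LncRNA-HIT*, are hybridized to fixed chromatin and the attached DNA is recovered and sequenced. Limb chromatin came from the distal limb buds of Swiss Webster mouse embryos at E 11.0, with about 2000 limb buds pooled for an assay and no genetic change in the animals. The control was chromatin of Swiss Webster murine glial cells that, per the labels, do not express the RNA. The sample tags give these cells the stage E 11.0 and a brain source, whereas the protocol calls them E15.5 cells, so their stage is not settled. Each tissue had 1 library with the odd probes, 1 with the even probes and 1 input, 6 libraries in all. The authors combined both probe sets at each position by keeping the smaller signal, and called 1 peak list per tissue, so no value below has a replicate error and read depth at a peak is not known. Neither list can show whether the labelled cells express their defining marker genes. Intervals are 95% intervals for counting error only, and neighbouring peaks can share their source.

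A promoter is the stretch around a gene start on which the transcription machinery assembles, and in mouse many promoters lie in CpG islands, stretches rich in G, C and the CG dinucleotide. Enhancers and other control elements can lie upstream of the start or in the first intron. Long noncoding RNAs that stay in the nucleus can bind chromatin proteins and lie at such elements. *LncRNA-HIT* itself is transcribed next to *Hoxa13*, a homeobox gene of the distal limb, and the study examined it together with p100, a transcriptional coactivator, and CBP, an acetyltransferase. Because the probes are single-stranded DNA, a genomic stretch that resembles a probe can also be pulled down by direct pairing, and the glial chromatin served as the control for this.

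The sequences below show where members share a run of bases with a probe. They are the 40 bases around the matching window in each of the 7 members at the study threshold, other than the one at the *LncRNA-HIT* locus, that share at least 12 adjacent bases with a probe. Capitals mark bases identical to the probe when the 20-base probe is laid on the window without gaps. Each stretch is printed on the strand that reads like the probe, and the probe follows it. Coordinates are of mm9.

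Cd209g, chr8:4138717-4138756, minus strand: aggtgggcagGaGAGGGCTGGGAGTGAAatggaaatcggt
probe 16, even set: GTGAGGGCTGGGAGTGAATG
Leprot, chr4:101324075-101324114, minus strand: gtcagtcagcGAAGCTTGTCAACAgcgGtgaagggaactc
probe 11, odd set: GAAGCTTGTCAACACGAGGT
Olfr694, chr7:113835669-113835708, minus strand: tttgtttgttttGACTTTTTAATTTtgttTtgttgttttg
probe 18, even set: GAGACTTTTTAATTTGCCGT
Fam71f2, chr6:29228658-29228697, minus strand: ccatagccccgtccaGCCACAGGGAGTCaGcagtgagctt
probe 1, odd set: CATTTGCCACAGGGAGTCTG
Pik3r1, chr13:102542610-102542649, minus strand: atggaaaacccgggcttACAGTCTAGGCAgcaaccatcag
probe 3, odd set: AAATACGACAGTCTAGGCAT
Arntl2, chr6:146745177-146745216, plus strand: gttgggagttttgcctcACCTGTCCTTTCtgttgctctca
probe 5, odd set: ACCAAAAACCTGTCCTTTCA
Sdad1, chr5:92735844-92735883, minus strand: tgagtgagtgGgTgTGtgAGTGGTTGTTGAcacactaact
probe 23, odd set: GTTTTGATAGTGGTTGTTGA

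The next 4 stretches, all of the mm9 plus strand, show the range of base composition among the members, with each CG dinucleotide in capitals. The *Lynx1* window belongs to the strongest member within 500 bp of a start and holds 14 CG. The *Aldh3a1* window, the next strongest of these, holds 3. The window of *E130114P18Rik* has the highest share of G and C of all members and holds 41. The shorter stretch near *Gm10718* is repeated sequence at the assembled start of chromosome 9.

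Lynx1, chr15:74582838-74583137: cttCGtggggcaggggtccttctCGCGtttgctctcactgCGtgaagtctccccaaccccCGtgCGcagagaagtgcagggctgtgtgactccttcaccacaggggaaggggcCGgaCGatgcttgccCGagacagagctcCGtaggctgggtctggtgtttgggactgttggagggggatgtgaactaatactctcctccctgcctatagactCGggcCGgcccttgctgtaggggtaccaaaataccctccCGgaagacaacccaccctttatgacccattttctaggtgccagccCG
Aldh3a1, chr11:61020438-61020737: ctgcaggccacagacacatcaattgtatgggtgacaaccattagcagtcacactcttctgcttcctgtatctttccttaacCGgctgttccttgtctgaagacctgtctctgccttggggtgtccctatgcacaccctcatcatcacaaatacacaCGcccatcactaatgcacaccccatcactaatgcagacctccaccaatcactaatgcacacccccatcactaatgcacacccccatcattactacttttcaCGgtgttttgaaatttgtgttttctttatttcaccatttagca
E130114P18Rik, chr4:97445075-97445374: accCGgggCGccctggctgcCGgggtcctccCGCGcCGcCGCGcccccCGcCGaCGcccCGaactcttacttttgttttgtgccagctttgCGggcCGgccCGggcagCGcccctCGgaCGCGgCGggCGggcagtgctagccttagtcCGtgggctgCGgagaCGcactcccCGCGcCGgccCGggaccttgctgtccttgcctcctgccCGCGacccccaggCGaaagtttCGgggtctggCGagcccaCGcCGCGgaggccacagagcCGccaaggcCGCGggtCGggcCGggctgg
Gm10718, chr9:3022364-3022483: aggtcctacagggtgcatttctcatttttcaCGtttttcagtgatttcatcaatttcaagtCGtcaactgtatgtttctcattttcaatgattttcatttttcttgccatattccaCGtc

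The score of a peak is given as −log10(p), where p is the p-value of the peak caller, so a higher value means a stronger peak. Among the 180 members it ran from 8.29 to 310 with a median of 39.4 (95% interval of the median 31.9 to 43.8), against 34.7 (33.0 to 36.5) in the 2700 other limb peaks, and the 2 intervals overlapped. The study set its threshold at a p-value of 5.9e-57, which is a −log10(p) of 56.2. Of the members, 43 reached it (23.9%, 18.2 to 30.6), whereas 26.9% of all limb peaks did. The share in members minus that in the other limb peaks was −3.19 percentage points (−9.08 to 3.75), so a difference was not detectable with this number of peaks. Widths were alike as well, with a median of 408 bp in both sets.

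Across the members the strongest lay at the *LncRNA-HIT* locus, chr6:52206123-52207602, 1480 bp wide and with the highest score of the list, 310, a value that 9 limb peaks shared. Its midpoint was 4012 bp downstream of the *Hoxa13* start and past the 3′ end of that gene, which spans chr6:52207693-52210874 on the minus strand. All 25 probes were found whole in it, as they must be where the RNA is encoded. The study mapped this RNA as a single exon. The peak passed as exon-free only because the annotation used holds no exon of the RNA there. The next strongest was a peak of 184 in the first intron of *Tmprss4*, a transmembrane serine protease, 2101 bp downstream of the start. *Atpbd4* had a peak of 107, 1598 bp upstream, and *Gm10718* one of 103, 1124 bp upstream. These 4 were the members with a p-value of 1e-100 or smaller.

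Among genes of known function, *Lynx1*, a membrane-anchored modulator of nicotinic acetylcholine receptors, had a peak of 94.2 in its first intron, 422 bp from the start. *Cd209g*, a C-type lectin gene, had one of 91.8 past its 3′ end, 4179 bp downstream. *Kif21b*, a kinesin motor, had one of 87.3 at 4633 bp downstream, in the first intron. *Dnmt1*, the maintenance DNA methyltransferase, had one of 80.2 at 3555 bp downstream, also in the first intron. *Pik3r1*, the regulatory subunit of PI3 kinase, and *Sorcs1*, a sorting receptor, had peaks of 78.4 and 78.1 at 4265 and 4260 bp upstream. *Arntl2*, a bHLH-PAS factor of the circadian clock, had one of 76.0 at 576 bp downstream. *Gabrb2*, a GABA-A receptor subunit, had one of 74.7 at 2422 bp upstream, and *Rgs3*, a regulator of G-protein signalling, one of 72.9 at 2606 bp downstream. The remaining genes of the 20 strongest were *4933427D06Rik*, *Gm10800*, *Gm600*, *Hist1h2bn*, *Sfi1*, *Leprot* and *Ankar*, with scores between 72.7 and 94.9. Of these 20 members 14 were downstream and 6 upstream, and 10 lay inside the gene whose start was nearest.

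**Figure D1:**
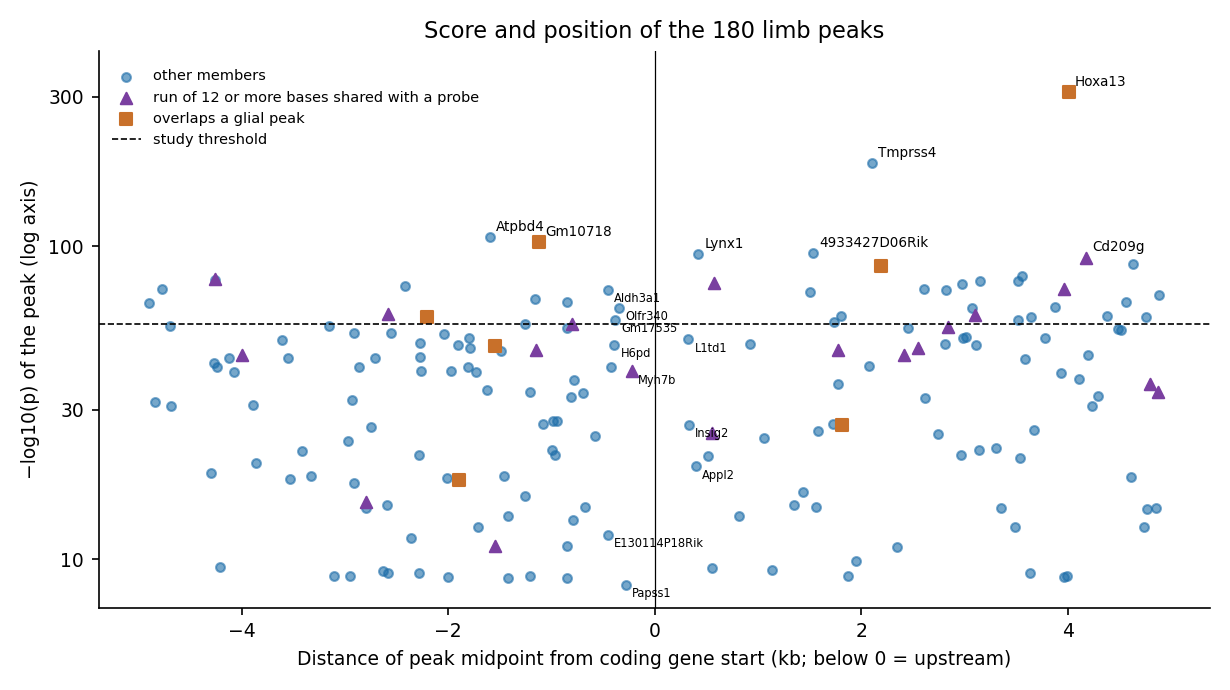
Each point is 1 of the 180 limb peaks, with the distance of its midpoint from the nearest coding gene start in kb on the horizontal axis, upstream to the left, and its −log10(p) on a log vertical axis. Members over 91 and most members within 500 bp are named. Orange squares overlap a glial peak, purple triangles share at least 12 adjacent bases with a probe and overlap none, and the dashed line is the study threshold of 56.2. High and low scores occur on both sides, and 3 of the 4 highest points lie between 1124 and 2101 bp of a start.

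The sides were compared next, to ask whether the peaks favour the promoter side of the start. The upstream share was 53.3% (46.1 to 60.5), 96 of 180, and in the glial list it was 51.8% (44.2 to 59.3), 85 of 164. Exons cluster downstream of starts, so the exclusion of exon peaks leaves less room there. The sequence within 5 kb of a coding start on which a peak of median width could be centred without touching an exon came to 85.2 Mb upstream and 70.7 Mb downstream, so 54.7% of it was upstream. Per Mb of this eligible sequence there were 1.13 limb peaks upstream (0.913 to 1.38) and 1.19 downstream (0.948 to 1.47). Against their eligible sequence, therefore, the members showed no detectable preference for a side. When exon peaks were kept as well, 253 limb peaks lay within 5 kb of a start and 45.8% of them were upstream.

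Density near starts was set against the rest of the exon-free genome. The 180 members gave 1.15 peaks per Mb (0.992 to 1.34), and the 2393 exon-free limb peaks farther than 5 kb from a coding start gave 1.07 (1.03 to 1.12). The intervals overlapped. The glial list gave 1.05 (0.897 to 1.23) near starts and 1.12 (1.08 to 1.17) farther away. In the 1000 bp upstream of a start there were 23 limb peaks, 1.53 per Mb (0.970 to 2.30), and in the 1000 bp downstream 10, 1.36 per Mb (0.651 to 2.50). The lowest bin was 3000 to 4000 bp upstream, with 9 peaks and 0.523 per Mb (0.239 to 0.994), which was the single bin of 10 whose interval lay below the density of the far sequence. The glial list had 14 peaks in that bin, 0.814 per Mb (0.445 to 1.37).

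**Figure D2:**
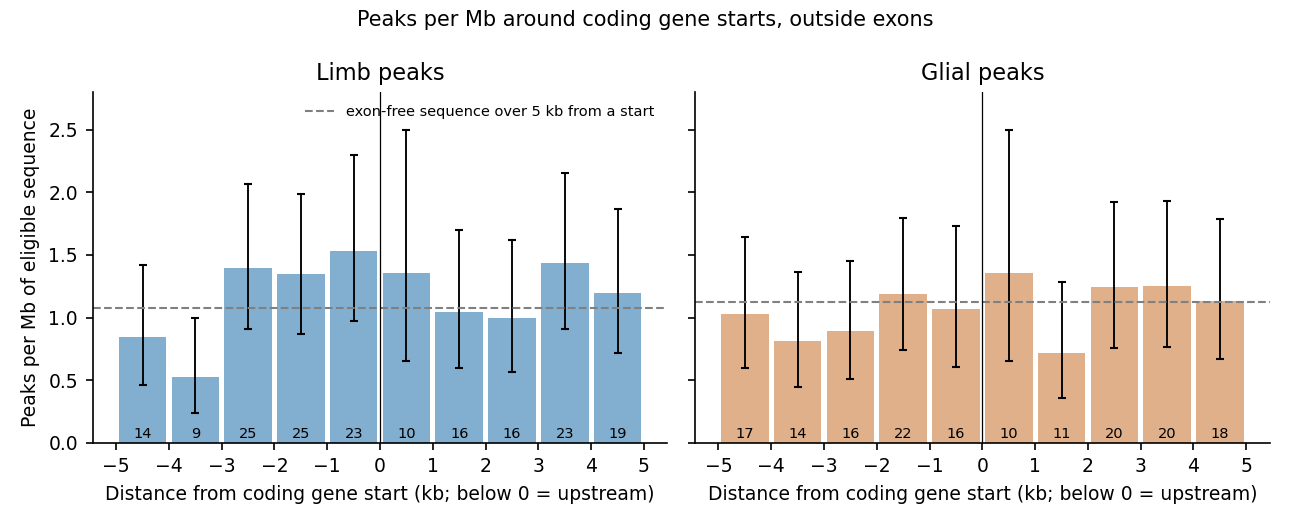
Peaks per Mb of eligible sequence in bins of 1 kb around coding gene starts, upstream to the left, for the limb list and for the glial list by the same rule. Whiskers are exact 95% Poisson intervals, the number in each bar is its count of peaks, and the dashed line is the density in exon-free sequence farther than 5 kb from a start, 1.07 per Mb for limb and 1.12 for glial. All but 1 of the limb whiskers reach the line.

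Distances themselves differed between the sides. The upstream members had a median distance of 2006 bp (1598 to 2552) and the downstream members one of 3002 bp (2552 to 3520). The glial list showed the same order, 2302 bp upstream and 2967 bp downstream. Eligible sequence within 2 kb of a start amounted to 33.6 Mb upstream and 22.7 Mb downstream. The limb counts there were 48 and 26, or 1.43 per Mb (1.05 to 1.89) and 1.15 per Mb (0.749 to 1.68). Between 2 and 5 kb the counts were 48 and 58, or 0.930 per Mb (0.686 to 1.23) upstream and 1.21 per Mb (0.917 to 1.56) downstream. Just inside the limit of 5 kb were *Zfp518b* at 4898 bp upstream, *Mthfd2* at 4888 bp downstream and *Tff3* at 4880 bp downstream, with scores of 65.7, 69.7 and 34.3. Just outside were peaks near *Atxn7l2* at 5010 bp, *Fjx1* at 5025 bp and *Prdx6* at 5162 bp, with scores of 17.5, 29.5 and 23.0.

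In the limb list a larger share of downstream than of upstream members was strong. Of the 84 downstream members 27 were at the study threshold (32.1%, 23.1 to 42.7), and of the 96 upstream members 16 were (16.7%, 10.5 to 25.4). The difference of 15.5 percentage points had an interval of 2.94 to 27.7, and it was found after the sides had been described, so it is a description of this list. The median −log10(p) was 44.2 (30.9 to 50.8) downstream and 34.5 (26.5 to 41.2) upstream. Most of it lay 2 to 5 kb from the start, where 21 of 58 downstream and 7 of 48 upstream peaks were at the threshold. Within 2 kb the counts were 6 of 26 and 9 of 48. In the glial list the same shares were 22.8% downstream and 18.8% upstream, a difference of 3.96 points (−8.44 to 16.4), and the gap between the tissues was not tested. With a limit of 10 kb the limb difference was 5.77 points (−2.96 to 14.5), and with any annotated transcript start in place of the gene start it was 9.02 points (−0.434 to 18.2). At a p-value of 1e-100 it was 0.298 points (−5.18 to 6.38).

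**Figure D3:**
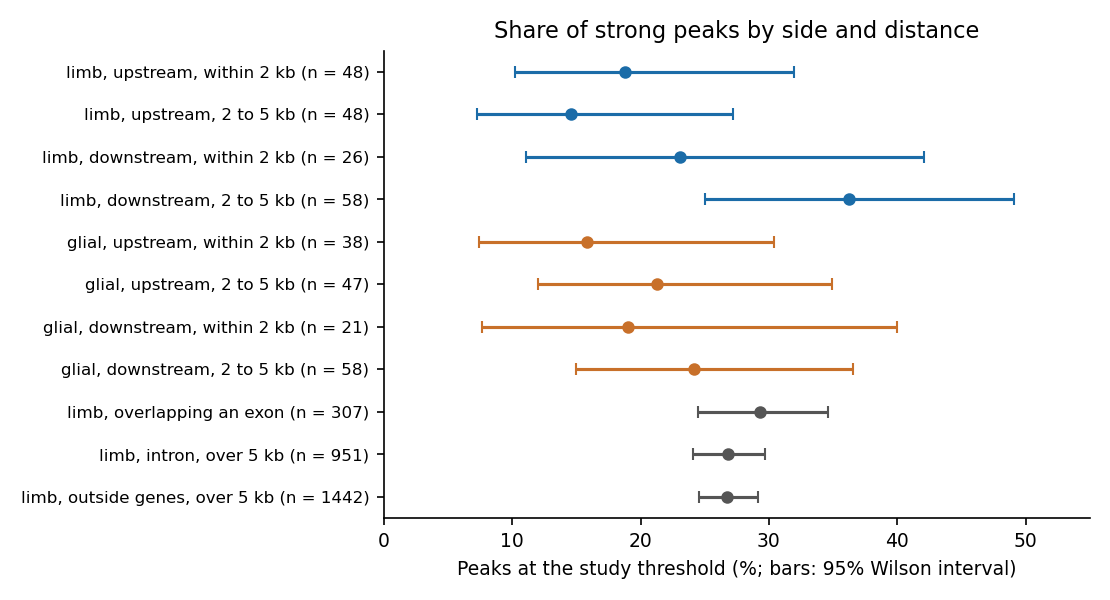
Share of peaks at the study threshold in percent, with 95% Wilson intervals, by side and distance from the start for limb (blue) and glial (orange) peaks near starts, and for the remaining limb peaks (grey). Limb peaks 2 to 5 kb downstream had the highest share, 36.2%, and those 2 to 5 kb upstream the lowest, 14.6%. The remaining limb classes lay between 26.8% and 29.3%.

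The place of the members relative to genes followed the side. Of the 84 downstream members 67 were in an intron of the gene whose start they were near, and for 54 of these it was the first intron of the longest transcript that spanned the peak. The other 17 lay past the 3′ end of a short gene, as at *Hoxa13*, *Cd209g* and *Hist1h2bn*. Of the 96 upstream members 86 were outside coding genes and 9 were in an intron of another coding gene. The remaining 1, a peak of 52.9 near *Gm12258*, lay in a further gene entry of that symbol. Of all members, 164 had 1 coding start within 5 kb and 16 had more. Starts on opposite strands shared 12 members, of which 5 were at the threshold. One of them, with a score of 77.2, lay 3520 bp downstream of the start of *Hist1h2bn* and 3736 bp upstream of that of *Hist1h2ak*, a divergent pair of histone genes. One of 66.3 lay 4570 bp downstream of the start of *Bhmt2* and 4701 bp upstream of that of *Dmgdh*. One of 57.1 lay 1738 bp downstream of the start of *Trpm8*, the cold-sensing ion channel, and 1766 bp upstream of that of *Hjurp*, a chaperone of the centromeric histone. One of 56.5 lay upstream of *Atp5j*, an ATP synthase subunit, by 1254 bp, and 1954 bp downstream of the start of *Gabpa*, an ETS-family transcription factor. The last was the member at *Gm10800*.

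Distances here run to the outer 5′ end of a gene, and 40 of the 180 members (22.2%) had another annotated coding transcript start nearer. The 12 members within 500 bp of a gene start were 8 upstream and 4 downstream, and 4 of them were at the threshold. The threshold was reached by *Lynx1* and by 3 upstream peaks, of 72.6 at *Aldh3a1*, an aldehyde dehydrogenase, 63.5 at the olfactory receptor gene *Olfr340* and 58.1 at the predicted gene *Gm17535*. *L1td1* had a peak of 50.5 at 324 bp downstream, in its first intron. *H6pd*, a glucose dehydrogenase of the endoplasmic reticulum, had one of 48.5 at 392 bp upstream. *Myh7b*, a myosin heavy chain, had one of 39.9 at 223 bp upstream, the nearest to a gene start of all 180. *Gm46* had one of 41.2. *Insig2*, which holds back sterol synthesis, had one of 26.9, and *Appl2*, an endosomal adaptor, one of 19.8. *E130114P18Rik* had one of 11.98, and *Papss1*, which makes the sulfate donor for sulfated glycans, one of 8.29, the weakest of the members. The other members of the weakest 3 were a peak of 8.72 near *Slc30a9*, a zinc transporter, and one of 8.73 near *Gm10800*.

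Of the 169 nearest genes, 8 had more than 1 member. *Sfi1*, a centrin-binding protein of the centrosome, had 5 over 8507 bp at the assembled start of chromosome 11, 2 upstream and 3 downstream, with scores from 18.8 to 75.9. *Kif21b* had 2 in its first intron, of 87.3 and 21.5. *Col6a4*, a collagen VI chain, had one of 54.5 downstream and one of 33.1 upstream. *Caskin1*, a synaptic scaffold protein, had one of 43.5 downstream and one of 21.5 upstream. *Cyb5b*, an outer mitochondrial cytochrome b5, had 2 downstream, of 48.3 and 10.9, and *D930014E17Rik* had 2 downstream, of 36.2 and 8.84. *Gm10716* and *Gm10800* had 2 each.

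The genes of limb development and of the complex partners were then looked up by fixed lists. Across the annotation, 185 of 22238 coding gene symbols (0.832%) had their start within 5 kb of a member. None of the 53 genes of chondrogenesis and cartilage matrix did, and none of the 62 Wnt signalling genes, the 24 genes of p100, CBP and their partners or the 28 glial and neural progenitor genes. Among the limb patterning genes *Hoxa13* did, through the *LncRNA-HIT* locus, and no count is given for this list. Of 62 genes of BMP and TGF-beta signalling 1 did, *Ltbp3*, which stores latent TGF-beta in the matrix, with a peak of 34.2 at 1205 bp upstream. The *Ltbp3* peak did not reach the threshold. By the same rule the glial list gave *Hoxa13*, *Tbx4* and, through 1 shared peak, *Hoxd11* and *Hoxd12* among the limb patterning genes. The scores of these peaks were 59.6, 13.9 and 26.5. It also gave 1 gene each for BMP and TGF-beta signalling (*Smad4*, 60.15) and Wnt signalling (*Wnt4*, 11.4). Of these glial peaks, those at *Hoxa13* and *Smad4* reached the threshold.

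Of the 40 annotated genes for which the study used qRT-PCR primers, 3 had a member, *Hoxa13*, *Lynx1* and *Trio*, a guanine nucleotide exchange factor whose peak of 30.9 lay 4684 bp upstream. These genes were chosen by the study from the same peak list, so their count is not independent evidence. The study chose them from peaks at its threshold, which the *Trio* member did not reach. Gene families were looked at after the members were known. Olfactory receptors made up 9 of the 169 nearest genes (5.33%, 2.83 to 9.81) and 5.00% of coding symbols. Predicted genes named Gm with a number made up 16 (9.47%, 5.91 to 14.8) against 9.09%, and histone cluster genes made up 2 (1.18%, 0.325 to 4.21) against 0.301%.

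Overlap with the glial control was read against the whole limb list. Shared bases with a glial peak, 1 bp or more, were found for 7 members (3.89%, 1.90 to 7.81) and for 3.85% of all limb peaks. The study filtered by visual inspection instead. From its strongest peaks alone it excluded more as present in glia than overlap a glial peak here in the whole list. Overlap of called peaks is thus a different measure from the study's filter. At the *LncRNA-HIT* locus the limb peak had a score of 310 and the glial peak one of 59.6, over 1008 shared bp, although the labels describe the glial cells as lacking the RNA. At *Gm10718* the scores were 103 in limb and 132 in glial, and at *Gm10800* 86.4 and 98.2. At *Sfi1* they were 59.2 and 48.7, with 180 shared bp. At *Gm10716* the limb score was 47.9 and the glial score 5.82, the weakest of the glial list. At *Map1lc3b*, a structural protein of autophagosomes, they were 26.7 and 25.2, and at *Osta*, a bile acid transporter subunit, 18.0 and 29.4. The glial peak was therefore the stronger one at *Gm10718*, *Gm10800* and *Osta*. Another 3 genes, *4933427D06Rik*, *Olfr550* and *Slc30a9*, had a near-start peak in each list at different positions. Scores of the lists depend on their own sequencing depth, which is unknown.

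Repeats were scored by cutting each peak into its overlapping 24-base words and counting those with a further copy anywhere in mm9. The median share was 2.60% in members (0.779 to 4.49) and 0.970% (0.528 to 1.30) in other limb peaks. Peaks with under 10% repeated words were counted as low in repeats, and 68.3% of members (61.2 to 74.7) and 73.9% of all limb peaks were. For 8 members 50% or more of the words were repeated. These were *Gm10718*, *Gm17535* and both members of *Gm10716*, all between chr9:3021896 and chr9:3034428, the stronger member of *Gm10800* on chromosome 2, and members near *Vmn2r56*, *Defb3* and *Apol7b*. At the 4 chromosome 9 members the median word occurred 22.5 to 25 times in the assembly. Of the 8, 3 overlapped a glial peak, and of the other 172 members 4 did. The authors kept uniquely aligned reads only, and how many reads such regions received is not known.

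Probe resemblance was read in 2 ways, as the best ungapped match of any probe to the peak on either strand and as the longest run of adjacent identical bases. At least 15 of the 20 bases matched in 34 members (18.9%, 13.8 to 25.2), beside 18.0% of all limb peaks and 12.8% of the glial near-start peaks. A run of at least 12 bases was present in 20 members (11.1%, 7.31 to 16.5), beside 7.92% of all limb peaks. The members' share minus that of other limb peaks was 3.41 points (−0.542 to 8.92). Among glial near-start peaks 5 of 164 held such a run (3.05%, 1.31 to 6.94), which is 8.06 points fewer than in the limb members (2.62 to 13.8). In the full lists the shares were 7.92% for limb, as above, and 2.77% for glial peaks.

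**Figure D4:**
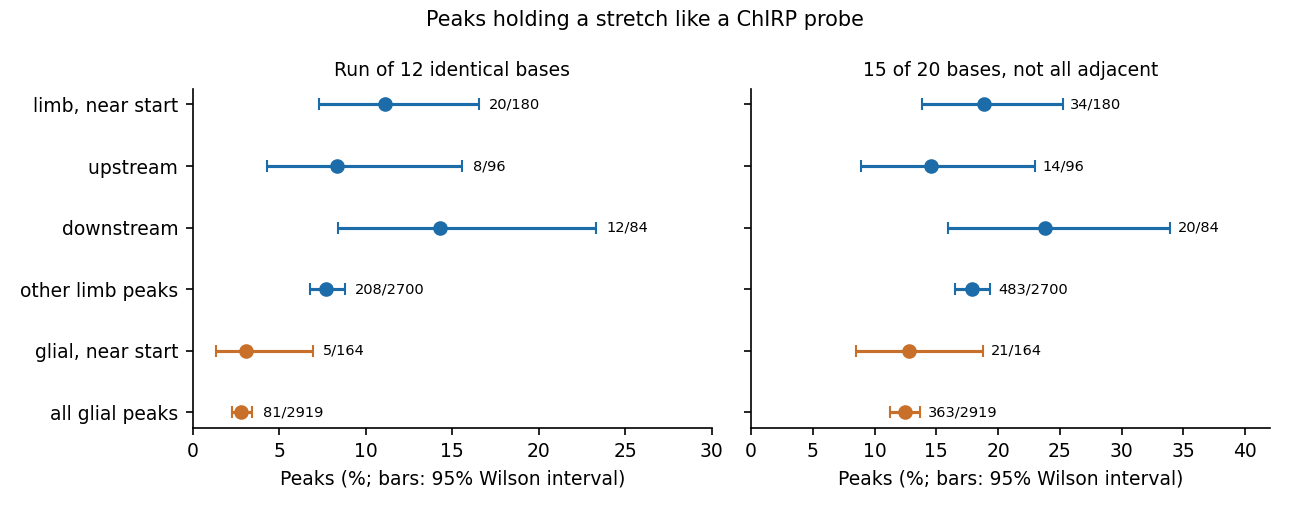
Share of peaks in percent, with 95% Wilson intervals and counts, that hold at least 12 adjacent bases identical to a probe (left) or match a probe at 15 of 20 bases or more (right). Limb peaks are blue and glial peaks orange. For runs of 12 the limb members stood at 11.1% and the glial peaks by the same rule at 3.05%.

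Without the *LncRNA-HIT* locus 19 members held a run of 12 or more, 11 to probes of the odd set and 8 to probes of the even set. Of these, 7 were at the threshold and 18 were low in repeats. The runs are those printed above, of 16 bases at *Cd209g*, 14 at *Leprot*, 13 at *Olfr694* and *Fam71f2* and 12 at *Pik3r1*, *Arntl2* and *Sdad1*. *Galnt3*, a glycosyltransferase, held a run of 14 at a low score of 15.3. Probes 9 and 16 accounted for 4 members each, and these were also the probes with the most runs of 12 in the whole limb list, 38 and 39 peaks. Matches of at least 15 bases to a probe of each set were found in 2 members (1.11%), *Hoxa13* and *Gm10260*, beside 0.868% of all limb peaks. Downstream members held a run of 12 more often than upstream ones by 5.95 points (−3.41 to 15.9), an interval that includes 0. In the 160 members without such a run the downstream minus upstream difference at the threshold was 15.8 points (2.83 to 28.6). Few members were left out, and a link between runs and this difference was not tested.

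Base composition was compared with promoters, taken as the 300 bases from 250 before to 50 after each start of 32544 RefSeq promoters of the build GRCm38.p6. These windows hold the start and the first exon bases, which the rule kept out of members. Since 168 members lay over 500 bp from a start, the 2 sets differ in position by the choice itself. In the central 300 bases of the members the median G + C was 45.3% (44.3 to 47.3), and it was 53.0% in the promoters. It was 44.3% in the other limb peaks and 43.7% (43.3 to 44.0) in those of them outside exons. The last interval lay below that of the members. The ratio of observed to expected CG dinucleotides had a median of 0.158 in members and 0.387 in promoters. It was 0.162 in other limb peaks and 0.153 in those of them outside exons. In the 12 members within 500 bp of a start the medians were 52.2% and 0.422, and in the other 168 they were 45.2% and 0.143. A ratio of at least 0.6 was found in 12 members (6.67%), beside 2.40% of all limb peaks and 6.10% of the glial near-start peaks. They included 4 of the members rich in repeats, at *Gm10718*, *Gm17535*, *Gm10800* and *Gm10716*, the *LncRNA-HIT* locus, and peaks near *E130114P18Rik*, *Pdlim1*, *Kcnh3*, *Fbxl18*, *Rab3b*, *Papss1* and *Appl2*, which lay 282 to 699 bp from their starts. Their scores at these 7 genes were 8.29 to 33.9, all under the threshold.

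**Figure D5:**
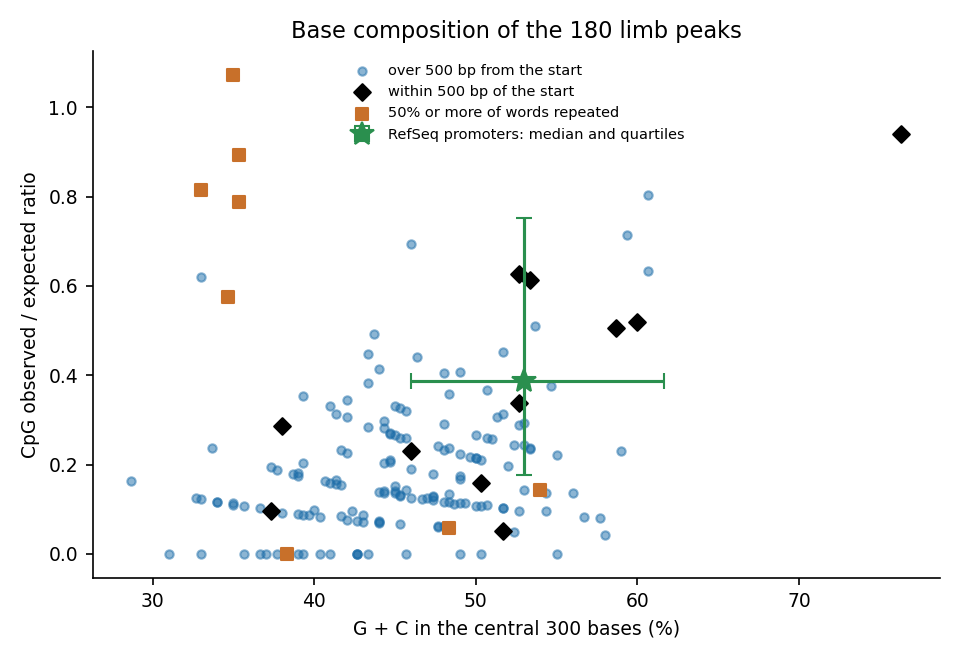
G + C in percent and the ratio of observed to expected CG dinucleotides in the central 300 bases of each of the 180 members. Black diamonds are members within 500 bp of a start, orange squares are members with 50% or more of their words repeated, and the green star with bars is the median and the quartiles of RefSeq promoters. Most members lie below the promoter median of 0.387, and 4 repeat-rich members with little G + C have ratios over 0.6.

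Motifs were searched in the same windows on both strands, and a match is a description of letters. The promoter windows hold the gene start, which the rule kept out of members, so their shares are of differently placed sequence. The GC box GGGCGG, bound by SP factors at CpG-rich promoters, was found in 6 members (3.33%, 1.54 to 7.08), in 3.30% of all limb peaks and in 35.9% of RefSeq promoters. The members with it were near *Tcf15*, *E130114P18Rik*, *D930014E17Rik*, *L1td1*, *Fam71f2* and *Zfp518b*. The cAMP response element TGACGTCA was found in 0 of 180 members, for which the Wilson interval reaches up to 2.09%. It was found in 0.243% of all limb peaks and in 1.80% of promoters. Its part TGACG, which TGACGTCA contains, was found in 11.1% of members, 9.38% of all limb peaks and 20.9% of promoters. The CCAAT box was found in 40.6% of members, 37.7% of all limb peaks and 37.4% of promoters. TTTAT, the core bound by posterior Hox proteins, was found in 52.2% of members (45.0 to 59.4), 57.6% of all limb peaks and 39.9% of promoters, and TATAAA in 17.2%, 22.0% and 13.6%. CACGTG was found in 3.89%, 4.03% and 7.17%, and TTCNNNGAA in 7.78%, 9.13% and 8.33%. For all 8 motifs the interval of the members' share included the share of all limb peaks, which does not show the shares to be equal.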

How the data were processed

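Per the labels and the study's methods, reads of each ChIRP library were aligned uniquely to mm9 with Bowtie 0.12.9 and scaled to the total read count, and MACS, whose version is not given in the sources used here, called peaks of the merged probe sets against the input. The deposited value of a peak is a score of 10 times −log10(p). It was divided by 10 and used only to describe and rank. No comparison across samples could be tested, because each tissue has 1 pooled list.

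Gene starts and exons were those of GENCODE M1 on mm9, with 22380 coding genes, and distances ran from the peak midpoint to the 5′ end of the gene. Eligible sequence was every position at which a window of the median peak width overlaps no exon. Shares have Wilson intervals, differences of shares Newcombe intervals, densities exact Poisson intervals and medians exact order-statistic intervals, all at 95%. Repeats were counted with 24-base words in both orientations. Python 3.11.15, numpy 2.4.6, pandas 2.3.3, scipy 1.17.1, numba 0.67.0 and matplotlib 3.10.9 were used. The procedures were tested on simulated data, where 481 of 500 Wilson, 469 of 500 Newcombe and 472 of 500 median intervals held the true value.

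The members and gene lists were chosen with earlier results of these data known. Named genes are those of the 20 strongest members, of members within 500 bp of a start, with starts on opposite strands at the threshold, on a fixed list, near both tissues' peaks, with several members, among the weakest 3 or at the distance limit. Others were chosen after their values were seen. Promoter windows came from RefSeq (GRCm38.p6), whose coordinates were not used. The alternatives tried were other distance limits, exon sets, start definitions, overlap, repeat and match definitions and stricter p-values. Signal tracks were not analysed here, and 1 gene covered by the naming rule is not reported here.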

Additional observations from a re-analysis of the deposited data

How the results depend on the processing

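No paired analysis was possible because the odd and even probe sets were pooled into 1 list per tissue before deposit, and for the same reason no library could be left out in turn. Bins of 500 bp gave densities between 0.460 and 2.98 peaks per Mb. Counting single exon-free bases gave 1.02 per Mb near starts (0.875 to 1.18) and 1.04 farther away (1.00 to 1.09). By this count there were 1.04 per Mb upstream and 0.992 downstream. Both orders were the reverse of those by windows, and the intervals overlapped. The number of members was 33, 74 and 346 with limits of 1, 2 and 10 kb and 307 with any transcript start. The upstream share was 69.7% and 64.9% within 1 and 2 kb, 45.8% with exon peaks kept and 37.2% among members at the threshold. The median −log10(p) was 27.7 within 1 kb and 30.4 within 2 kb. A p-value of 1e-100 left 2.22% of members at the threshold, and with it the downstream minus upstream difference, added after seeing the data like its other alternatives, was 0.298 points, while these others gave 4.33 to 17.5 points. Glial overlap was 0% within 1 kb (0 of 33, Wilson interval up to 10.4%). It was 9.30% among members at the threshold (4 of 43, 3.68 to 21.6). A probe match at 15 of 20 bases was present in 32.6% of members at the threshold (14 of 43, 20.5 to 47.5). For all limb peaks at the threshold, neither the glial overlap nor the probe match share is given here. Neither value can therefore be read as particular to members near starts. Among all members, stricter definitions gave 11.1% for runs of 12 and 1.11% for 17 of 20 bases. Low repeats under limits of 25% and 50% covered 82.8% and 95.6%. All other alternatives kept a count within 1.5 times or a share within its interval. The number of peaks, not depth, which is unknown, set the width of every interval.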
